A study of Mus musculus with 9 samples.

Results

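RNA-Seq was compared between NMuMG cells that stably overexpress EPR and NMuMG cells that carry the empty vector (mock). NMuMG is an established line of immortalized mouse mammary gland epithelial cells. The comparison used 6 libraries of the 9 in the series, all libraries labelled as overexpressing the full transcript (3) and all labelled mock (3), and the remaining 3 libraries came from EPRSTOPE cells. EPR is the long non-coding RNA annotated as BC030870, and it also holds a short open reading frame for a peptide, which a point mutation in the second codon abolishes in EPRSTOPE. Expression came from a pBICEP-CMV-2-based vector driven by the CMV promoter, and G418-resistant cells were used as pools, so a library stands for a selected population and not for a clone. The paper calls the libraries of a group biological triplicates. Whether the 3 came from separate transfections is not given in the sources used here. The spread among them may therefore not cover variation between transfected pools. Cells of all groups were grown in the same medium with serum and without TGF-β, the cytokine that drives epithelial to mesenchymal transition (EMT) in this line.

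Epithelial cells are held together by adherens junctions built on cadherins and catenins, by tight junctions of occludin, claudins and zonula occludens proteins, by desmosomes, and by hemidesmosomes that anchor the keratin network to the basement membrane. In EMT, transcription factors of the Zeb, Snai and Twist families lower these genes while matrix and cytoskeletal genes rise. Cell division is restrained by Cdkn1a (p21), an inhibitor of cyclin-dependent kinases and a classical target of p53, and arrested cells lose the transcripts of the replication and mitosis machinery.

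The reading frame of EPR is shown because its second codon is the one altered in EPRSTOPE. It was read from the Gencode M21 transcript of the gene (GRCm38, minus strand of chromosome 8), where it runs from base 345 to base 560 of 1507 and has 71 codons before the stop. The capitals mark the start codon, the second codon and the stop codon.

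EPR reading frame: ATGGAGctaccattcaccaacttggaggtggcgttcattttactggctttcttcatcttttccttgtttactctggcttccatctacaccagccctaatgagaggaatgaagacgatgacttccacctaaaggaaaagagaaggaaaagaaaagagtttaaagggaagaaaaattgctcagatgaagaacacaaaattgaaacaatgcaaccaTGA

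Values are counts scaled by library size and TMM factors to the usual CPM unit, and error is the SD of 3 libraries. The library totals were 5972457 to 11876435 estimated counts in mock and 8020805 to 11755831 in EPR, so that 3 counts correspond to 0.244 to 0.466 CPM in mock and 0.262 to 0.379 in EPR libraries, and lower values cannot be resolved. *BC030870* itself was at 0, 0 and 0.163 CPM in the mock libraries and at 23.7, 27.02 and 23.9 CPM in the EPR libraries. The 2 counts in mock against 741 in EPR give a ratio of 347 with a 95% counting interval of 95.8 to 2874, which covers counting error only. The paper gives a far smaller overexpression relative to mock cells in its different transfectant pools, and this interval lies above its range. The cause of this difference was not tested. The files cannot separate the transfected RNA from the endogenous one. Mitochondrial transcripts made up 1.18% to 1.39% of the counts in mock and 1.90% to 2.58% in EPR, and the mean fragment length implied by the deposited effective lengths was 412 to 474 nt in mock against 181 to 283 nt in EPR. Both differences run parallel to the groups, and their part in the results below was not tested.

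The labelled cell type was checked with its defining markers. *Krt8* and *Krt18*, the keratin pair of simple epithelia, were among the abundant transcripts of all 6 libraries. *Epcam*, an epithelial adhesion molecule, had no count in any mock library, and *Cdh1* (E-cadherin) was at 0.843 ± 0.464 CPM in mock, so these markers were at or near 0 in the mock libraries. Summed markers of blood cells stayed at 1.52 to 3.85 CPM in mock and 1.02 to 3.12 in EPR, and those of adipocytes at 0.65 to 1.0 and 0.87 to 1.40. Summed fibroblast markers stayed at 1.0 to 2.36 CPM in mock and 2.37 to 3.06 in EPR, with *Col3a1* and *Dpt* at 0 in all 6 libraries, and the single tested member, *Pdgfra*, had no count in mock and 1.19 CPM in EPR. Summed hepatocyte markers were at 0.67 to 2.05 and 0.56 to 1.25 CPM and summed endothelial markers at 13.6 to 14.7 and 13.96 to 17.37. Of the markers of basal mammary epithelium, *Acta2* and *Krt14* were lower in EPR (*Krt14* not called with protein-coding transcripts only) and *Trp63* had no count in the 6 libraries. In bulk RNA, fewer cells of a type and less RNA per cell cannot be told apart. Neural markers summed to 2.36 to 3.85 CPM in mock and 0.25 to 1.31 in EPR.

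EPR overexpression went along with broad changes in both directions. A gene was called when the quasi-likelihood test of edgeR gave an adjusted p below 0.01 and the log2 fold change exceeded 0.5 in size. By this rule 15.2% of the 15370 tested genes were higher in EPR cells and 12.9% were lower, or 28.1% together. The p-values measure the spread among these libraries, and the exact two-sided permutation test of a single gene cannot go below p = 0.1 with 3 libraries against 3. The genes called higher took 11.3% ± 0.04 of all counts in mock and 23.6% ± 0.81 in EPR libraries (SD, n = 3 each), and the genes called lower went from 18.7% ± 0.30 to 9.67% ± 0.30. The median log2 fold change of all tested genes was -0.01. Many changes were large, with 394 genes higher and 202 lower by a log2 fold change beyond 3. Among protein-coding genes 17.9% were called higher and 14.9% lower, whereas among 607 lincRNA genes the shares were 6.8% and 6.6%. The share of genes called depended on level, from 13.7% of the genes under 1 CPM to 34.6% of those between 5 and 20 CPM.

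**Figure D1:**
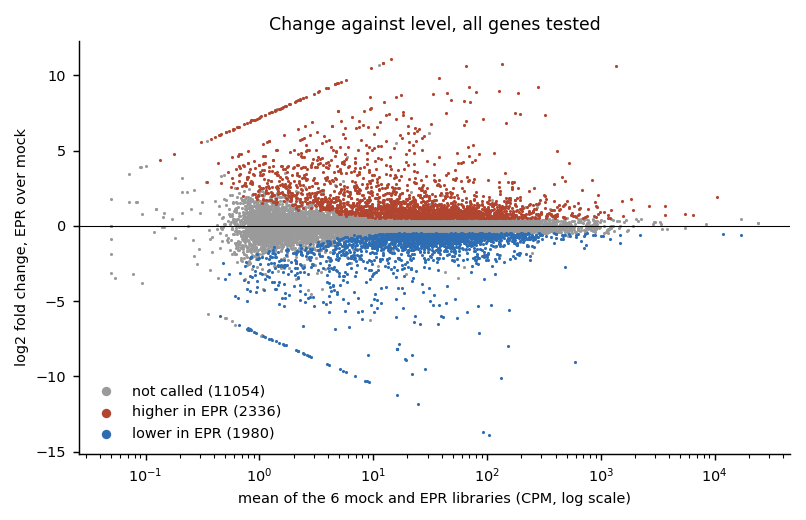
Each point is 1 of the 15370 tested genes, with the mean of the 6 mock and EPR libraries on the x axis (CPM, log scale) and the log2 fold change of EPR over mock on the y axis. The 2336 genes called higher (red) and the 1980 called lower (blue) extend over the whole range of levels, and the gray points are genes not called.

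A set of genes was switched between near absence and expression. At most 3 counts in the 3 mock libraries together and a mean of at least 5 CPM in EPR cells were found for 36 genes annotated as protein-coding, and the reverse for 17. The 36 include *BC030870*, the transfected gene itself. *Krt6a*, a keratin of stressed and hyperproliferative epithelia, was without a count in mock and at 10.1, 11.6 and 9.44 CPM in EPR, at least 30.4-fold higher. *S100a9*, a subunit of the calcium-binding protein calprotectin, was likewise without a count in mock and at 8.73, 12.1 and 8.504 CPM in EPR, at least 28.6-fold higher. These bounds set each mock library at 3 counts. *Slpi*, a secreted inhibitor of leukocyte proteases, was at 0.054 ± 0.094 CPM in mock and 34.9 ± 3.32 in EPR. Lost in EPR cells were *Hoxb6*, with 18.6, 17.5 and 16.8 CPM in mock and no count in EPR (at least 57.5-fold lower), and *Hoxb9*, for which 1049 counts stood against 2. *Bcat1*, an enzyme of branched-chain amino acid breakdown, had 1614 counts in mock and 2 in EPR, a ratio of 861 with a 95% counting interval of 238 to 7113.

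Gene groups were read against these background shares, and every call below is that of edgeR with Benjamini-Hochberg adjustment over all 15370 genes. The groups that stood far above the background on the higher side held junction, acute-phase, chemokine, p53 and xenobiotic genes, and those on the lower side held replication, mitosis and histone genes. A member near 0 in mock or in EPR entered the test only through libraries that expressed it. Shares of groups with such members therefore follow in part from the filter. Ribosomal protein genes of the cytosol were called less often, with 5 of 85 higher and 4 lower. Nuclear genes for respiratory chain subunits were called 2 of 75 times in each direction, with a median log2 fold change of 0.001.

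**Figure D2:**
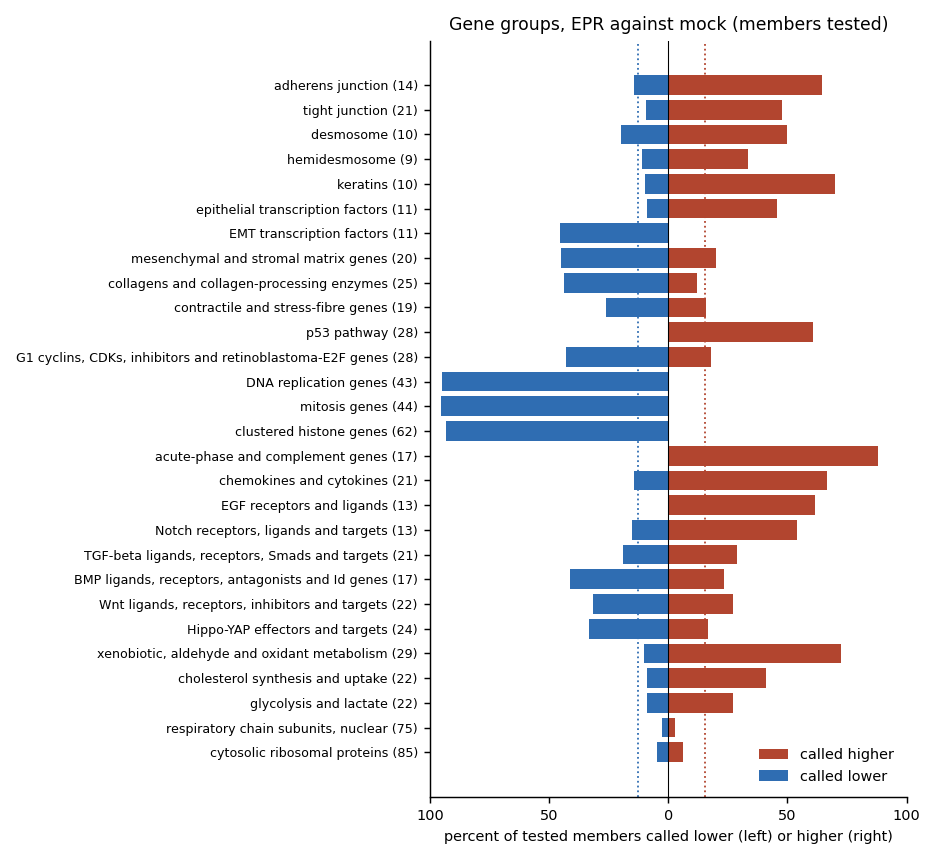
For each gene group, with the number of tested members in brackets, the bars give the percentage of members called lower (left, blue) and higher (right, red) in EPR against mock. Dotted lines mark the shares over all tested genes, 12.9% lower and 15.2% higher, and 95.5% of mitosis genes lie to the left while 88.2% of acute-phase and complement genes lie to the right.

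Of 14 tested adherens junction genes, 9 were called higher in EPR cells and 2 lower, with a median log2 fold change of 0.90. *Ctnnb1*, which encodes β-catenin, the link between cadherins and the cytoskeleton, was at 761, 748 and 725 CPM in mock and 2393, 2313 and 2363 in EPR libraries (log2 fold change 1.66, standard error 0.04, adjusted p = 3.29e-11), but with counts rebuilt from TPM and length its log2 fold change was 0.94 and not called. All EPR values lay above all mock values, and over all tested genes 57.8% showed no overlap between the groups. *Cdh17*, a cadherin typical of intestinal epithelium, rose from 6.68, 6.01 and 4.88 to 100.3, 103.9 and 108.7 CPM (4.18). *Plekha7*, a junctional adaptor, rose by a log2 fold change of 2.16, whereas *Nectin3*, a nectin adhesion molecule, fell from 76.6 ± 5.77 to 26.9 ± 2.35 CPM (SD, n = 3 each). *Ctnna1* (α-catenin) was at 581 ± 17.8 and 700 ± 22.9 CPM, a log2 fold change of 0.27 that did not reach the fold threshold.

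Of 21 tested tight junction genes, 10 were called higher and 2 lower. *Cgnl1*, which encodes paracingulin of the junction plaque, rose from 84.2 ± 2.87 to 272 ± 8.56 CPM (log2 fold change 1.69), and *Cgn* (cingulin) from 35.5 ± 4.41 to 71.6 ± 2.78 CPM (1.003). *Pard6b*, a polarity protein, rose by 1.35. Of 10 desmosome genes, 5 were called higher, among them *Dsp* (desmoplakin), at 168, 157 and 159 CPM in mock and 489, 485 and 465 in EPR (1.57), *Pkp1* (0.95) and *Perp* (0.80). *Dsg2* (-0.505) and *Pkp4* (-0.82) fell, but *Dsg2* lost its call under 10 alternatives, among them DESeq2 and limma-voom, and *Pkp4* was at 0.08 when only protein-coding transcripts were counted. Of 9 hemidesmosome genes, 3 rose and 1 fell. *Itga6*, the integrin α subunit of the hemidesmosome, rose from 127 ± 5.71 to 288 ± 10.1 CPM (1.18).

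Among 10 tested keratin genes, 7 were called higher and 1 lower. *Krt8* was at 1989, 2232 and 2104 CPM in mock and 5402, 5485 and 4902 in EPR (log2 fold change 1.32). *Krt18* rose from 1526 ± 101 to 3746 ± 291 CPM (1.29) and *Krt19* from 280 ± 16.6 to 584 ± 12.3 CPM (1.06). *Krt7* rose from 1.87 ± 0.43 to 9.11 ± 0.57 CPM (2.25). Of the 10 keratin genes, 6 lie on chromosome 15, where 81.9% of the tested genes had a log2 fold change above 0, and without the genes of chromosomes 14 and 15 and of a stretch of chromosome 13, 2 of 4 keratins were called higher with a median of 0.35 against 1.31.

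Of 11 tested epithelial transcription factors, 5 were called higher, 1 lower and 5 were not called. *Ehf*, an Ets factor of epithelia, was at 0.311, 0 and 0.244 CPM in mock and 15.01, 17.2 and 21.4 in EPR. *Elf3*, another Ets factor, rose from 6.33 ± 1.11 to 17.8 ± 0.89 CPM (log2 fold change 1.4998), and *Esrp2*, an epithelial splicing regulator, from 11.3 ± 1.095 to 30.6 ± 2.995 CPM (1.43). *Foxa1*, a pioneer factor of luminal mammary cells, went the other way, from 8.54, 8.65 and 7.24 to 0.349, 0 and 0.280 CPM. Endodermal factors split, with 3 of 12 higher and 2 lower: *Hnf4a* rose from 62.0 ± 1.15 to 126 ± 11.5 CPM (1.02), and *Cdx2*, a master regulator of intestinal identity, from 2 to 315 counts. Of 7 listed markers of intestinal epithelium, 4 were tested and all 4 were called higher. The summed level of all 7 rose from 9.01 to 12.9 CPM in mock to 189 to 208 CPM in EPR. Among them *Vil1* (villin, of the microvilli) rose from 3.37 ± 0.65 to 42.3 ± 2.58 CPM and *Lgals4* (galectin-4) from 0.70 ± 0.62 to 44.9 ± 1.18 CPM, while *Cdx1* had no count in the 6 libraries. *Cdx2* and *Lgals4* averaged under 1 CPM in mock and entered the test only through libraries where they were higher. Their calls therefore follow in part from the filter.

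None of 11 tested EMT transcription factors was called higher, and 5 were called lower. *Prrx2*, a homeobox factor of mesenchyme, fell from 15.1, 12.7 and 15.95 CPM to 0.349, 0 and 0.374, and *Snai2* from 6.06, 7.28 and 7.16 to 1.75, 3.16 and 2.43 CPM (log2 fold change -1.505, adjusted p = 0.000435). *Zeb1* was at 54.1 ± 3.94 CPM in mock and 49.5 ± 1.29 in EPR, a log2 fold change of -0.13 that was not called. *Snai1* was at 2.64, 2.11 and 1.55 CPM in mock and 3.14, 4.17 and 3.18 in EPR (0.76, adjusted p = 0.0412), higher in each EPR library but not called.

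Matrix genes were lower in EPR cells in part of their members. Of 20 tested mesenchymal and stromal matrix genes, 9 were called lower and 4 higher, and of 25 collagens and collagen-processing enzymes 11 and 3. *Vcan*, the proteoglycan versican, fell from 133, 129 and 131 to 2.71, 2.65 and 2.15 CPM (log2 fold change -5.71, standard error 0.12, adjusted p = 1.11e-11). *Col7a1*, the anchoring fibril collagen of the basement membrane, fell from 206, 222 and 205 to 4.54, 6.19 and 5.98 CPM (-5.26). *Pcolce*, an enhancer of procollagen cleavage (-3.05), and *Col5a1*, a chain of the fibrillar collagen V (-2.02), fell too. The mock and EPR libraries did not overlap for any of these genes, nor for 57.8% of all tested genes. Other genes of these lists rose, *Ecm1* from 10.5 ± 0.999 to 66.6 ± 1.799 CPM (2.67), *S100a4* from 236 ± 18.4 to 496 ± 49.1 CPM (1.07), *Serpinh1*, a collagen chaperone (0.78), and *Spon2* (1.71, but 0.71 and not called with protein-coding transcripts only). The collagen *Col15a1* (2.36) and *Bmp1*, a procollagen protease (1.17), were higher as well, and *Bmp1* lies in the raised stretch of chromosome 14 (below). *Sparc*, a matricellular protein, was at 370 ± 20.99 and 379 ± 7.74 CPM and was not called. *Thbs1* (thrombospondin, a matricellular protein) fell from 848, 872 and 817 to 121, 129 and 124 CPM (-2.76).

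Single cytoskeletal genes changed by large factors. *Flnc* (filamin C, an actin crosslinker of muscle) fell from 1183, 1215 and 1148 to 2.44, 1.77 and 2.34 CPM, and *Fscn1* (fascin, which bundles actin in filopodia) from 266 ± 21.6 to 0.218 ± 0.378 CPM. *Acta2* (smooth muscle actin) fell from 10.1 ± 0.69 to 1.17 ± 0.24 CPM. *Vcl* (vinculin) and *Mylk* (myosin light chain kinase) went up, by log2 fold changes of 1.15 and 2.96. Of 19 tested contractile and stress-fibre genes, 5 were called lower and 3 higher, close to the background on the higher side. *Anxa6*, an annexin that binds membranes in a calcium-dependent way, fell from 302, 313 and 306 to 0.873, 1.26 and 1.49 CPM (-7.98), the lone annexin or S100 gene called lower of 25, of which 12 were higher.

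Of 28 tested genes of the p53 pathway, 17 were called higher, none lower and 11 were not called, with log2 fold changes of those called from 0.80 to 8.86 and a median over all members of 0.97. *Cdkn1a* was at 6.37, 8.02 and 7.49 CPM in mock and 103.2, 94.3 and 93.2 in EPR (log2 fold change 3.71, standard error 0.09, adjusted p = 3.29e-11). *Mdm2*, the ubiquitin ligase that degrades p53 and is itself a target, rose from 75.03, 74.6 and 81.4 to 385, 393 and 387 CPM (2.33), but with protein-coding transcripts only its log2 fold change was 1.35 and not called. *Trp53inp1*, a stress-induced p53 cofactor, rose from 7.52 ± 1.39 to 139 ± 23.7 CPM (4.24), and *Eda2r*, a death receptor of the p53 programme, from 0.155, 0.211 and 0.163 to 84.2, 80.6 and 100.5 CPM. *Trp53* itself was at 112 ± 7.37 and 80.4 ± 6.61 CPM (-0.48, adjusted p = 0.0032) and missed the fold threshold. With protein-coding transcripts only it was at -0.54 and was called lower.

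Genes of DNA replication and mitosis fell almost as a whole. Of 43 replication genes 41 were called lower and none higher, with a median log2 fold change of -1.002, and of 44 mitosis genes 42 were called lower and none higher, with a median of -1.03. *Mki67*, the proliferation marker Ki-67, fell from 1091, 1014 and 1029 to 451, 428 and 410 CPM (-1.28, standard error 0.05). *Rrm2*, the small subunit of ribonucleotide reductase, fell from 288, 314 and 293 to 85.4, 83.2 and 85.3 CPM (-1.82), and *Mcm2*, a subunit of the replicative helicase, from 199 ± 3.22 to 103 ± 4.95 CPM (-0.96, but -0.64 and not called with counts rebuilt from TPM and length). Among the mitotic regulators *Mybl2* (-2.26) and *Foxm1* (-1.67), transcription factors of late cell cycle genes, fell, as did *Ccnb1* (-0.98) and *Cdk1* (-0.81), a mitotic cyclin and its kinase. *Pcna* fell by 0.59 on the log2 scale. The 4 genes that were not called were *Gins2* (-0.28), *Cdt1* (-0.45), *Ccnb2* (-0.30) and *Pttg1* (0.24).

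Among 28 genes of the G1 phase and the retinoblastoma pathway, 12 were called lower and 5 higher. *Cdkn2a*, which encodes the inhibitors p16 and p19, fell from 27.03, 35.3 and 37.8 to 6.55, 6.19 and 6.54 CPM (log2 fold change -2.38), while its neighbour *Cdkn2b* (p15) rose from 14.7 ± 1.78 to 36.1 ± 2.32 CPM (1.28). Both lie in a lowered stretch of chromosome 4 (below). *Ccnd1* (cyclin D1) rose from 936 ± 25.4 to 1366 ± 14.002 CPM (0.55, but 0.45 and not called with rebuilt counts). *E2f2* rose (2.52) while *E2f7* (-1.76) and *E2f8* (-1.43), the repressor E2F factors, fell.

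Replication-dependent histone genes, whose transcripts accumulate in S phase, were called lower in 58 of 62 tested cases and higher in none, with a median log2 fold change of -2.03. *Hist1h1b* was at 216, 281 and 281 CPM in mock and 60.1, 56.8 and 54.9 in EPR, and *Hist2h3b*, which lies on chromosome 3, fell by 2.65 on the log2 scale. Most histone genes lie together in a stretch of chromosome 13, and of the 13 tested outside that stretch 9 were called lower. Reads of near-identical histone copies may be divided among them by the quantification, so values of single histone genes are uncertain. The same holds for *Krt6a*, *Saa3*, *Gstm1* and other genes with close paralogs.

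**Figure D3:**
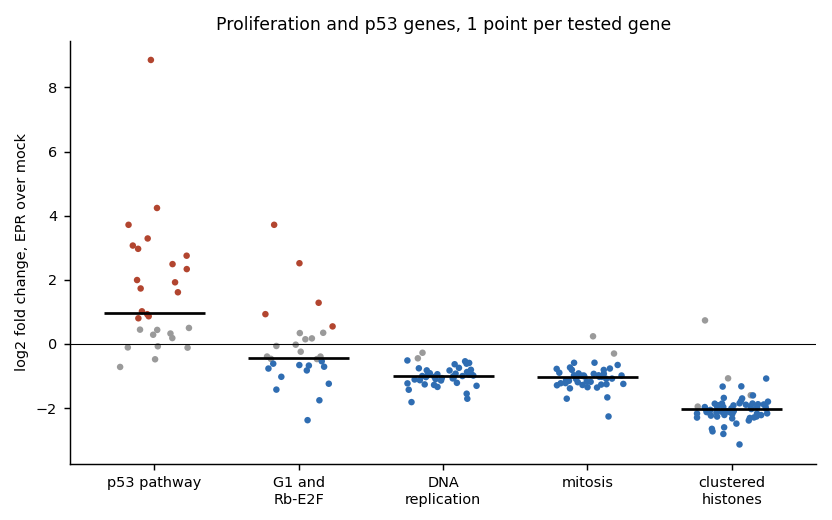
Each point is a tested gene of 5 groups, with its log2 fold change of EPR over mock on the y axis, red if called higher, blue if called lower and gray if not called, and black bars give the medians. The p53 group has its median at 0.97 and the clustered histone genes at -2.03.

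Promoters of mitosis genes were read because the genes moved together. A known element of late cell cycle promoters, the CHR, has the letters TTTGAA. In the RefSeq promoter windows (GRCm38.p6, 250 bases before to 50 bases after each start), TTTGAA or its complement TTCAAA was present in 17.9% of all 32851 windows, in 12.5% of the windows of tested genes, in 27 of 36 windows of the listed mitosis genes (75.0%) and in 4 of 39 of the replication genes (10.3%). It was present in 17.5% of windows of all genes called lower and in 10.6% of those called higher. A match is a description of letters and not of binding. Windows of *Cdk1* (minus strand, chr10:69352863-69353162) and *Cdc20* (an activator of the anaphase-promoting complex, minus strand, chr4:118437294-118437593), are printed with this motif in capitals.

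Cdk1 promoter: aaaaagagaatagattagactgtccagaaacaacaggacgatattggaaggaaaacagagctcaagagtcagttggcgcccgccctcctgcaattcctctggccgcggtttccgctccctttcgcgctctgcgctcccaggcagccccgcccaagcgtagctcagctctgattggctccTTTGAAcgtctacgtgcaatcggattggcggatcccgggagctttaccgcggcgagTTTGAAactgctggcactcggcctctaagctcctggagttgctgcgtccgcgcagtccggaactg

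Cdc20 promoter: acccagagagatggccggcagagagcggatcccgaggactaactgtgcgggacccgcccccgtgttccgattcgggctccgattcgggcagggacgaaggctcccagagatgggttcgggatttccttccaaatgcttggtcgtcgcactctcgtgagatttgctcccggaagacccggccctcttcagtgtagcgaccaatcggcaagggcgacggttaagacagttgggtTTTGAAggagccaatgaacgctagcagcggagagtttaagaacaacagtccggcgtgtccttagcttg

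Acute-phase and complement genes are induced in inflammation by liver and barrier epithelia. Of 26 listed members 17 were tested, of which 15 were called higher and none lower. The median log2 fold change of the tested members was 4.26, and those called ran from 2.89 to 8.20. Over the alternatives 12 to 15 were called higher, and the median ran from 3.077 to 6.725. Members near 0 in mock, such as *Lcn2* (below), entered the test only through other libraries, so these values follow in part from the filter. *C3*, the central complement component, rose from 1.71, 2.005 and 2.605 to 382, 376 and 395 CPM (7.45, standard error 0.11, adjusted p = 1.01e-12). *Lcn2* (lipocalin-2, which binds bacterial siderophores) rose from 0.466, 0.528 and 0.407 to 137, 140 and 143 CPM (8.204), and *Saa3*, a serum amyloid, from 1.21 ± 0.36 to 125 ± 4.04 CPM (6.72). *Cp* (ceruloplasmin, the copper-carrying ferroxidase) went from 182, 178 and 176 to 1414, 1499 and 1610 CPM (3.08), and *Clu* (clusterin, a secreted chaperone) from 54.1 ± 5.12 to 998 ± 13.7 CPM (4.21). The summed level of the list went from 327 to 348 CPM in mock to 3783 to 4072 in EPR.

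Chemokines and cytokines followed, with 14 of 21 tested members called higher and 3 lower. *Cxcl5*, a neutrophil chemoattractant, rose from 1.86, 2.64 and 0.977 to 2754, 2655 and 2735 CPM (log2 fold change 10.58). *Cxcl1* rose from 87.9 ± 14.9 to 822 ± 61.5 CPM (3.22), *Ccl2* from 312 ± 12.4 to 743 ± 27.9 CPM (1.25) and *Ccl7* from 6.35 ± 0.42 to 113 ± 6.299 CPM (4.15). *Il6* had 2 counts in mock and 4.65 ± 1.12 CPM in EPR. *Il11*, a cytokine of the same family, fell from 58.6, 51.3 and 43.5 to 0.698, 0.379 and 0.467 CPM (-6.55), so the direction was not shared within the group. Interferon and antigen presentation genes were called in 8 of 25 cases, 6 higher and 2 lower.

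EGF family genes were called higher in 8 of 13 cases and lower in none. *Areg* (amphiregulin) rose from 43.3, 44.1 and 44.3 to 235, 219 and 193 CPM (log2 fold change 2.29), *Ereg* (epiregulin) from 37.3 ± 0.68 to 148 ± 7.03 CPM (1.99), *Btc* (betacellulin) from 0.931 ± 0.300 to 19.8 ± 2.03 CPM (4.31), and their receptor *Egfr* from 108 ± 5.699 to 190 ± 5.71 CPM (0.81). *Erbb2* was not called. Notch genes were called higher in 7 of 13 cases and lower in 2, with the receptor *Notch1* from 4.19, 2.74 and 4.23 to 60.05, 65.03 and 67.1 CPM (4.102) and the ligand *Jag2* from 20.1 ± 2.45 to 53.1 ± 1.77 CPM (1.41), whereas *Jag1* (-0.43) and *Hes1* (-0.16) were not called. With counts rebuilt from TPM and length, *Notch1* was at 1.70 and *Egfr* at 0.40, neither of them called.

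Genes of the TGF-β and BMP pathways went in both directions. All 3 TGF-β ligands fell, *Tgfb1* from 39.2 ± 4.02 to 20.03 ± 0.71 CPM (log2 fold change -0.97), *Tgfb2* from 32.8, 32.5 and 33.2 to 5.41, 5.81 and 5.42 CPM (-2.57), and *Tgfb3* from 15.6 ± 0.28 to 5.59 ± 1.44 CPM (-1.47). The receptor *Tgfbr1* rose from 66.02 ± 5.796 to 131 ± 9.82 CPM (0.99) and *Smad3*, which carries the signal to the nucleus, from 110 ± 1.84 to 189 ± 6.97 CPM (0.78), the latter not called with rebuilt counts. Over the list of 21 genes 6 were higher and 4 lower. Of 17 BMP genes, 7 were lower and 4 higher: *Bmp2* fell from 50.6, 55.9 and 50.4 to 2.36, 1.39 and 3.36 CPM (-4.42) and *Bmp7* from 11.8 ± 2.04 to 0.291 ± 0.504 CPM, while *Bmp4* rose from 0.311, 0.422 and 0.163 to 41.98, 41.04 and 44.9 CPM (7.16). *Fst* (follistatin, which traps activins) rose by 4.01, and *Id1* (0.67) and *Id2* (-0.88), both BMP-responsive inhibitors of bHLH factors, moved in opposite directions. *Bmp4* lies in the raised stretch of chromosome 14, and *Tgfb3* and *Id2* lie in the lowered stretches of chromosome 12 (below).

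In the Wnt list the calls went both ways, with 6 of 22 higher and 7 lower. *Wnt4* fell from 23.1, 14.7 and 18.96 to 2.18, 1.77 and 2.62 CPM (log2 fold change -3.08), *Wnt5a* from 7.57 ± 0.51 to 0.181 ± 0.157 CPM and the receptor *Fzd4* from 7.395 ± 0.91 to 1.05 ± 0.51 CPM (-2.79). *Wnt7a* rose (1.86). *Axin2*, a feedback inhibitor and target of β-catenin, was at -0.83 with an adjusted p of 0.282. In the Hippo list 4 of 24 were higher and 8 lower, and *Cyr61* fell by 1.16 on the log2 scale while *Ctgf*, another target of YAP, was at -0.38 and not called.

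**Figure D4:**
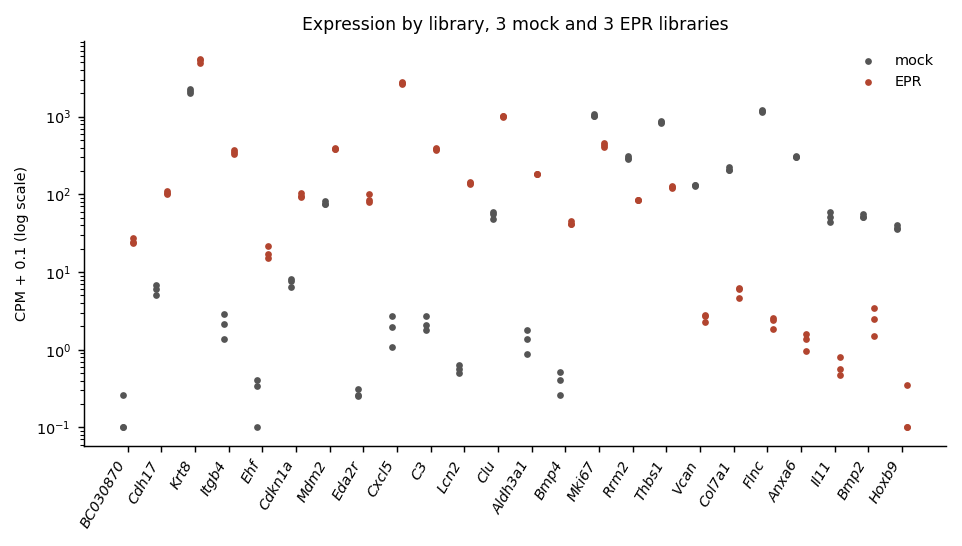
For 24 genes, the points give CPM plus 0.1 on a log scale in the 3 mock libraries (gray) and the 3 EPR libraries (red). The mock and EPR points of each gene lie apart, with *Cxcl5* at 2655 to 2754 CPM in EPR and under 3 CPM in mock. Over all tested genes 57.8% showed no overlap between the groups.

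Genes of xenobiotic, aldehyde and oxidant metabolism were called higher in 21 of 29 cases and lower in 3. *Aldh3a1*, an aldehyde dehydrogenase of barrier epithelia, rose from 0.777, 1.27 and 1.71 to 183.5, 183.6 and 183.7 CPM (log2 fold change 7.09), *Gstm1*, a glutathione transferase, from 0.898 ± 0.325 to 55.5 ± 3.15 CPM (5.94), and *Ephx1* (microsomal epoxide hydrolase) from 7.59 ± 3.16 to 224 ± 2.73 CPM (4.83). *Aldh1a1* rose by 2.53. The genes that fell were *Hmox1* (heme oxygenase, -1.55), *Ahr*, the dioxin receptor (-1.29), and its target *Cyp1b1* (-1.304). Cholesterol synthesis and uptake genes were called higher in 9 of 22 cases, such as *Fdft1* (1.18) and *Sqle* (0.87), and without the genes of chromosomes 14 and 15 and of a stretch of chromosome 13 in 6 of 19. Transcripts of the glucose transporter and of a first enzyme of glycolysis rose, *Slc2a1* (GLUT1) from 56.5 ± 2.93 to 164 ± 17.2 CPM (1.54) and *Hk1* (hexokinase) from 71.2 ± 2.47 to 182 ± 7.02 CPM (1.35), whereas 14 of 22 glycolysis genes were not called. *Pparg* (-3.36) fell, and *Pdk4*, which shuts pyruvate dehydrogenase, went from 353 to 3 counts. *Cpt1a*, the gate of mitochondrial fatty acid oxidation, rose from 70.4 ± 3.40 to 243 ± 8.52 CPM (1.79). Of 13 subunits encoded by mitochondrial DNA, 11 were called higher with a median of 0.90, beside the higher mitochondrial share of the EPR libraries.

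Of 13 tested Hox genes, 6 were called lower, 1 higher and 6 were not called, and the number lower ranged from 2 to 8 over the alternatives. *Hoxb9* was at 40.4, 35.8 and 36.6 CPM in mock and at 0, 0.253 and 0 in EPR, and *Hoxb7* went from 226 counts to none, at least 26.7-fold lower. Of the 6 genes called lower, 5 belong to the Hoxb cluster on chromosome 11. *Hoxa10*, at 0.44 on the log2 scale, was not called. Of 24 tested metalloproteases and inhibitors, 11 were higher and 4 lower, with *Adamts15* from 0.613 ± 0.446 to 49.8 ± 1.78 CPM (6.41) and *Mmp3* (stromelysin) from 0.773 ± 0.283 to 16.9 ± 2.25 CPM (4.47) against *Adamts1* from 31.1 ± 1.53 to 0.450 ± 0.262 CPM (-6.03). Of 20 tested serpins, 8 were higher and 2 lower, and *Serpine2* (protease nexin-1) rose from 1.55, 0.422 and 1.22 to 132, 126 and 132 CPM (6.96). In absolute terms the nuclear RNA *Malat1* gained the most, from 4716, 4069 and 4551 to 14021, 16272 and 19397 CPM (1.898), and *Neat1*, the scaffold RNA of paraspeckles, rose from 330 ± 15.1 to 939 ± 126 CPM (1.51).

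Groups tied to EPR itself were examined. Of 48 tested genes that encode proteins immunopurified with the EPR peptide in the study, 18 were called higher (37.5%) and 2 lower (4.2%), with a median log2 fold change of 0.32. Over all tested genes the shares were 15.2% and 12.9%. Of genes between 20 and 100 CPM, 34.1% were called in either direction, and of those over 100 CPM 28.8%. The part of level in the count of this group was not tested. *Myo7a*, an unconventional myosin, rose from 0.413 ± 0.149 to 40.4 ± 1.802 CPM (6.64), and *Myh10* (non-muscle myosin IIB) fell from 193 ± 6.77 to 42.9 ± 0.91 CPM (-2.17). Of the 8 tested genes within 2 Mb of the EPR gene, other than EPR, *Msmo1* rose (0.60) and *Tma16* (-0.59) and *Naf1* (-1.29) fell, and 5 were not called. Over all tested genes 28.1% were called, so with so few neighbours their share does not stand out. With counts rebuilt from TPM and length, *Msmo1* (0.59) and *Tma16* (-0.33) were not called.

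The position of a gene on the chromosomes went along with its change. The median log2 fold change was 0.48 over the 488 tested genes of chromosome 14 and 0.49 over the 525 of chromosome 15, with 37.9% and 41.5% called higher, and -0.27 over the 584 genes of chromosome 12, with 24.1% called lower. The other chromosomes had medians between -0.14 and 0.03. Stretches were joined from windows of 50 neighbouring genes whose median was beyond 0.4 in size in these same data. Their medians and shares above 0 therefore follow in part from that choice. On chromosome 14 the 320 genes from position 40747227 to 122106974 (GRCm38) had a median of 0.67, with 84.7% above 0, while 50 genes from 24044343 to 31128956 had a median of -0.44. In each EPR library the median over the expressed genes of chromosome 15 relative to the mock mean was 0.51, 0.48 and 0.49, and that of chromosome 14 was 0.48, 0.46 and 0.49, against -0.02 to 0.03 in the mock libraries. The mock values lie near 0 by construction, because each was set against the mean of the same libraries, and they give only the spread. On chromosome 13 a stretch of 140 genes had a median of -0.88, and of -0.31 without its 49 histone genes. On chromosome 4 the 50 genes from 87769925 to 103215164, with *Cdkn2b* and its neighbour *Cdkn2a* among them, had a median of -0.48, against -0.06 in EPRSTOPE. On chromosome 12 the stretches from 21417323 and from 85219481 had medians of -0.42 and -0.37, against -0.25 and -0.13 in EPRSTOPE. Relative to the same mock libraries, EPRSTOPE had a median of 0.58 for chromosome 14 and 0.51 for chromosome 15, and the direct medians of EPR against EPRSTOPE were -0.13 and -0.02. The stretch of chromosome 13 was at -0.81 in EPRSTOPE. Chromosome 12 was at -0.08 in EPRSTOPE, with a direct median of -0.25. The chromosome 14 stretch from 24044343 was at 0.01 in EPRSTOPE, with a direct median of -0.21. Not every shift was therefore of the same size in EPRSTOPE. Without the genes of chromosomes 14 and 15 and of the stretch of chromosome 13, 13.6% of the remaining genes were called higher and 12.9% lower, and mitosis, replication, p53, chemokine, EGF and xenobiotic lists were called in the same direction as before in 40 of 42, 41 of 43, 16 of 26, 14 of 21, 8 of 13 and 21 of 29 cases. The part of gene position in the changes of single genes of these chromosomes was not tested.

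**Figure D5:**
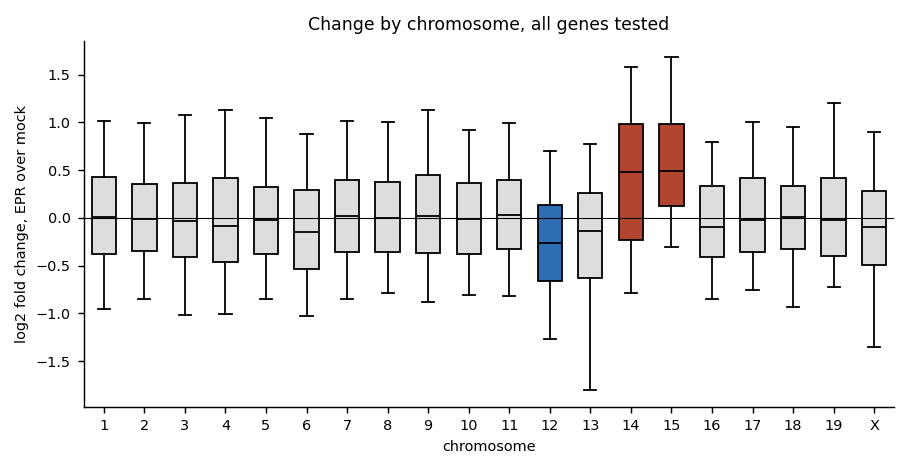
Boxes show the log2 fold change of EPR over mock for the tested genes of each chromosome, with the median as a black line, the quartiles as box edges and whiskers from the 10th to the 90th percentile. Chromosomes 14 and 15 (red) have medians of 0.48 and 0.49 and chromosome 12 (blue) of -0.27.

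Between EPR and EPRSTOPE cells 13.2% of the tested genes were called, and a few are given here with all 3 groups side by side. *Aldh1a1*, a retinaldehyde dehydrogenase, was at 49.9, 51.5 and 44.6 CPM in mock and 274, 290 and 280 in EPR, but at 24.6 CPM on average in EPRSTOPE (EPR over EPRSTOPE 3.52 on the log2 scale, adjusted p = 7.7e-10). *Cxcl16*, a membrane-bound chemokine, had 0.633 ± 0.144 CPM in mock cells, 35.4 ± 1.803 with full EPR and 0.589 with EPRSTOPE (5.72). For *Anxa6* the means were 307 ± 5.296 CPM (mock), 1.21 ± 0.31 (EPR) and 232 (EPRSTOPE), with a direct difference of -7.58. For *Cxcl5* the direct difference was 0.00 with an adjusted p of 0.998, and for *Cdkn1a* it was 0.28 with an adjusted p of 0.0138, which does not show that the populations are alike. *BC030870* was itself higher in EPR than in EPRSTOPE cells, at 24.9 ± 1.87 against 4.24 CPM (2.56).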

How the data were processed

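Total RNA of NMuMG pools was sequenced as paired-end, strand-specific libraries. Per the labels, the authors quantified reads with kallisto 0.43.1 on Gencode vM15 transcripts and deposited estimated counts, TPM and effective lengths per transcript and library, and whether strand was used in counting is not given in the sources used here. The authors' TPM values were used only in an alternative.

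Estimated counts were summed per gene symbol and rounded. A gene entered the test when 3 or more libraries reached 1 CPM, which left 15370 genes, and edgeR 4.0.16 (R 4.3.3) fitted all 9 libraries as a single factor with TMM scaling and quasi-likelihood tests, with Benjamini-Hochberg adjustment over all genes. The thresholds for a call, 0.01 for the adjusted p and 0.5 for the size of the log2 fold change, were those of the study. The scripts were tested on simulated data. DESeq2 1.42.0 and limma 3.58.1 were alternatives. A group without counts was set at 3 counts per library for bounds on folds.

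Named genes were *BC030870*, *Cdkn1a* and genes named in the study, the first 3 members of each list, its 3 highest and 3 lowest called members with at least 5 CPM, the 10 largest gains and losses in CPM, the 10 highest and 10 lowest fold changes of non-overlapping genes with at least 50 CPM, and 3 genes per chromosome stretch. *Slpi*, *Cdc20*, *Gins2*, *Cdt1*, *Ccnb2* and *Pttg1*, and the markers at or near 0, were chosen after their values were seen. Some genes that the rule names are not reported here. The members and lists were chosen with earlier results of these data known. Gene positions are from Gencode M21 (15314 genes matched).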

Additional observations from a re-analysis of the deposited data

How the results depend on the processing

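The number of genes higher in EPR was 1354 with a log2 fold change beyond 1 and 3787 at an adjusted p under 0.05 with no fold threshold, and the number lower was 942 and 3691. Counts rebuilt from TPM and length gave 1771 genes higher and 1282 lower. Leaving out 1 library at a time gave 2137 to 2347 genes higher and 1709 to 2001 lower. With those rebuilt counts the log2 fold change took the other sign for *Sparc* (-0.302) and *Zeb1* (0.009), neither of them called, and *Pkp4* was at 0.08 with protein-coding transcripts only. The median of the mesenchymal and stromal matrix list was 0.033 with no filter on low counts. Of 136 called genes named in the text, *Pkp4* was the one to change sign, and its value of 0.08 also missed the fold threshold. A further 12 lost their call under at least 1 of the 20 alternatives that refit the model. With rebuilt counts these were *Ccnd1* (0.45), *Ctnnb1* (0.94), *Egfr*, *Mcm2* (-0.64), *Msmo1*, *Notch1* (1.70), *Smad3* (0.935) and *Tma16*, and with protein-coding transcripts only *Krt14*, *Mdm2* (1.35), *Spon2* and *Tma16*, while *Dsg2* lost it under 10 alternatives (down to -0.40 without EPR replicate 207). Some named genes not called in the main fit were called under an alternative. They were *Cdt1* (-0.605) and *Trp53* (-0.54) with protein-coding transcripts only, and *Gins2* (-0.89) and *Ctnna1* (0.545) with rebuilt counts. *Trp53* was also called without EPR replicate 206 (-0.55) and without mock replicate 205 (-0.52). The cause of these changes was not tested. Depth limits values under 3 counts per library, and the fragment lengths behind TPM rest on few distinct steps, 13 to 24 in mock and 11 in EPR. Leaving out the genes of chromosomes 14 and 15 and of a stretch of chromosome 13 was chosen after seeing the data. No paired analysis was possible because mock, EPR and EPRSTOPE libraries share no replicate numbers.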
